A study of Mus musculus with 40 samples.

Results

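Adipocytes, the cells of fat tissue, were followed here through the transcripts of 10 genes: the secreted proteins Adipoq, Cfd, Retn and Lep, the fatty acid carrier Fabp4, the lipid droplet proteins Plin1, Plin4 and Cidec, and the lipases Lipe and Pnpla2. The genes were chosen by name, and all 10 have a row among the 23079 gene rows of the count table. The libraries come from cervix and from myometrium, the muscle of the uterine wall, of pregnant C57BL/6 mice at 18.5 days post coitum. The mice had been injected intraperitoneally with human chorionic gonadotropin (hCG), a hormone of the placenta, or with phosphate-buffered saline (PBS). There were 10 hCG cervix, 10 PBS cervix, 10 hCG myometrium and 10 PBS myometrium libraries, 40 in all. The labels name no other allele or agent, and the sources used here give neither the dose of hCG nor the time from injection to collection. The numbers that name the libraries are not said to be animals, so p-values measure the spread between these libraries.

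White adipocytes store triglyceride in a droplet coated by perilipin 1 (Plin1), where CIDEC enlarges the droplet by lipid transfer. On demand, ATGL (the product of Pnpla2) removes the first fatty acid and hormone-sensitive lipase (Lipe) the next, and FABP4 carries the fatty acids released. The same cells secrete adiponectin (Adipoq), adipsin or complement factor D (Cfd), leptin (Lep) and, in mice, resistin (Retn), under the control of PPARγ and C/EBP transcription factors. Fat lies around the organs of the pelvis. In bulk libraries, fewer cells of a type and less RNA per cell cannot be told apart, and no library of fat itself was measured, so the shares below are shares of reads and not of tissue.

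The 4 secreted members lie on 4 chromosomes, and their promoters are shown because their transcripts rose and fell together across the cervix libraries. They are given as the 250 bases before the annotated start, plus strand, from RefSeq GRCm38.p6: chr16:23146286-23146535 for Adipoq, chr10:79890603-79890852 for Cfd, chr8:3655520-3655769 for Retn and chr6:29059971-29060220 for Lep. Capitals mark a match to the C/EBP motif TTGCNNAA, and Lep holds one, which reads the same on both strands, at 55 to 48 bases before its start.
Adipoq: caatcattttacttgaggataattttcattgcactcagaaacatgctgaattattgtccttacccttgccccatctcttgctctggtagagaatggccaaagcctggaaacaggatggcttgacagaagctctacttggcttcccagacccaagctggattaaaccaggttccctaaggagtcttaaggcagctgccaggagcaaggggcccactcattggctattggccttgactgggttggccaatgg
Cfd: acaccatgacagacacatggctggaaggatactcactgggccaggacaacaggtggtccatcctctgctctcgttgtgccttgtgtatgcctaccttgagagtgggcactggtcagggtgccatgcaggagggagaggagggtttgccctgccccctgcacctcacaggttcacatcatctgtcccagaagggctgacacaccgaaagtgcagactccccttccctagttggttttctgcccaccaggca
Retn: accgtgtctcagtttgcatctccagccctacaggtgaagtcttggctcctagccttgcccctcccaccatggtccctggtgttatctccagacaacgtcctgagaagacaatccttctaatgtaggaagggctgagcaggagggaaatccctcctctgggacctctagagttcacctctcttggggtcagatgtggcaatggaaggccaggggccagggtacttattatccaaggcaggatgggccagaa
Lep: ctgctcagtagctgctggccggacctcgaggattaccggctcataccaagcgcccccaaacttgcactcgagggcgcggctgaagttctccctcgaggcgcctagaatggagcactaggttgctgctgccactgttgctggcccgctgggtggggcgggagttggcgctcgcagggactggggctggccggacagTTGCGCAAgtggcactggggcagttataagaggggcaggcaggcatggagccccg
RefSeq gave 11 such windows for 9 of the members. On both strands, TTGCNNAA was found in 3 of the 11 windows (Lep, Plin1 and the second Cidec start), against 9.56% of all 32851 windows. The PPAR-RXR direct repeat AGGNCANAGGNCA was in 0 of 11, against 0.338% of all windows, and TATAAA in 0 of 11, against 12.4%. The motifs searched do not overlap in the Lep window, and a match is a description of letters, not a binding site.

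The other members lie on GRCm38.p6 at chr3:10204342-10208616 (Fabp4), chr7:79721164-79732904 (Plin1), chr17:56100587-56109948 (Plin4), chr6:113424634-113435760 (Cidec), chr7:25379527-25398486 (Lipe) and chr7:141455188-141460743 (Pnpla2), and all 10 are protein-coding. Plin4 overlaps Hdgfl2, Lipe overlaps 4732471J01Rik and Cidec overlaps Gm52871 in that annotation. The sources used here do not say whether strand was used in counting, so reads of these pairs cannot be told apart.

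Total counts ran from 6613775 to 22274244 in hCG cervix, 7255131 to 25028360 in PBS cervix, 5449239 to 20603741 in hCG myometrium and 5933199 to 20108002 in PBS myometrium. Levels are given as CPM, read counts scaled to library size over the 40 libraries. Summed over 10 squamous epithelial markers, cervix libraries held 609 to 63522 CPM and myometrium libraries 6.19 to 54.1 CPM, and all 9 smooth muscle markers were present in both tissues. Some libraries stand apart. Cervix libraries hCG 1 to 6 and PBS 1 to 4 were the deeper ones. In hCG cervix library 1, 10 skeletal muscle markers summed to 6372 CPM, against 29.9 to 345 CPM in the other hCG and 7.64 to 285 CPM in the PBS cervix libraries. Urothelial markers summed to 2631 CPM in hCG cervix library 5 and 699 CPM in library 3, against 15.5 to 245 CPM in the other hCG and 28.3 to 107 CPM in the PBS cervix libraries. The transcript of Lars2, a mitochondrial tRNA synthetase, was at 39177 to 205712 CPM in PBS cervix libraries 5 to 8. Results in cervix are therefore given with and without hCG libraries 1, 3 and 5, and by depth.

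The 4 secreted members had few or no reads in myometrium apart from hCG library 5. In cervix their spread was wide in the hCG group. Adipoq, which encodes the adipokine adiponectin, had a lowest, median and highest level of 0.424, 36.7 and 368 CPM in hCG cervix, against 3.85, 19.7 and 38.2 CPM in PBS cervix. Of the 10 hCG cervix libraries, 5 (1, 3, 4, 5 and 9) lay above every PBS cervix library and 3 (2, 6 and 10) below every one. In myometrium, Adipoq had no count in 7 of 10 hCG libraries and in 8 of 10 PBS libraries, the highest values being 16.7 CPM and 0.352 CPM. Cfd, the protease that activates factor B of the alternative complement pathway, had the highest level per kilobase of the 10 in both cervix groups. It stood at 0.659, 119 and 807 CPM in hCG cervix, against 9.11, 40.3 and 100.4 CPM in PBS cervix, with the same 5 hCG libraries above and 3 below the PBS range.

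Retn, made by white adipocytes in mice, stood at 0, 12.7 and 121 CPM in hCG cervix, against 2.06, 7.55 and 18.01 CPM in PBS cervix. Here 3 hCG libraries (1, 3 and 5) lay above the PBS range and 3 (2, 6 and 10) below it. Retn had no count in any PBS myometrium library. In hCG myometrium library 5, Retn was at 5.11 CPM and Lep at 4.225 CPM, above the highest PBS cervix level of Lep, 2.36 CPM. Lep, the hormone that reports fat stores to the brain, was the lowest of the 10 per kilobase in hCG cervix, with 0, 1.41 and 34.1 CPM there, against 0.210, 1.63 and 2.36 CPM in PBS cervix. The hCG cervix median of Lep was thus below that of PBS cervix, while 4 hCG libraries (1, 3, 5 and 9) exceeded every PBS library and 3 (2, 6 and 10) fell short of every one. Libraries 2, 6 and 10 held 0, 1 and 0 counts of Lep, and PBS library 5, the lowest of its group, held 2. Counts so low do not settle the order of these libraries.

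Among the fatty acid carrier and droplet genes, Fabp4 held the most reads in cervix. Its lowest, median and highest levels were 10.5, 167 and 1418 CPM in hCG cervix, against 17.2, 68.3 and 109.6 CPM in PBS cervix, with 6 hCG libraries above and 3 below the PBS range. FABP4 is also made by endothelium and macrophages, and it was present in every myometrium library, averaging 21.6 ± 16.4 CPM in hCG myometrium and 12.7 ± 8.93 CPM in PBS myometrium (SD, n = 10 each). The endothelial markers summed to 198 to 451 CPM in hCG cervix, 172 to 388 CPM in PBS cervix, 474 to 837 CPM in hCG myometrium and 482 to 784 CPM in PBS myometrium. Macrophage markers summed to 293 to 1255 CPM in hCG cervix, 161 to 651 CPM in PBS cervix, 1025 to 1710.2 CPM in hCG myometrium and 873 to 1808 CPM in PBS myometrium. All 10 markers of each list were detected in every group, and their part in the level of Fabp4 was not tested.

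Plin1, the droplet coat that holds lipolysis in check, stood at 0.171, 6.70 and 43.3 CPM in hCG cervix, against 0.597, 2.40 and 8.36 CPM in PBS cervix. It was listed with counts in 1 hCG and 1 PBS myometrium library. Plin4, a perilipin of nascent droplets that skeletal and heart muscle also make, reached 14.4, 73.0 and 340 CPM in hCG cervix, against 17.8, 41.0 and 104 CPM in PBS cervix. Plin4 averaged 27.7 ± 9.13 CPM in hCG myometrium and 26.8 ± 13.1 CPM in PBS myometrium, and the ranges of those groups overlapped. The droplet enlarger Cidec stood at 0, 22.5 and 265 CPM in hCG cervix, against 2.12, 9.45 and 25.1 CPM in PBS cervix. For Plin1 and Cidec, hCG libraries 1, 3, 4, 5 and 9 lay above the PBS range, and for Plin4 libraries 1, 3, 4 and 5.

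The lipases varied less. Lipe stood at 4.78, 20.8 and 81.4 CPM in hCG cervix, against 7.45, 10.2 and 20.4 CPM in PBS cervix, and at 11.9 ± 4.88 CPM in hCG myometrium and 14.0 ± 5.55 CPM in PBS myometrium (SD, n = 10 each). Pnpla2, whose lipase acts first in most cells that hold droplets, stood at 7.03, 32.3 and 117 CPM in hCG cervix, against 9.91, 21.8 and 31.9 CPM in PBS cervix. It averaged 22.9 ± 5.12 CPM in hCG myometrium and 22.6 ± 5.18 CPM in PBS myometrium. Both lipases had 5 hCG cervix libraries above the PBS range, again 1, 3, 4, 5 and 9.

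**Figure D1:**
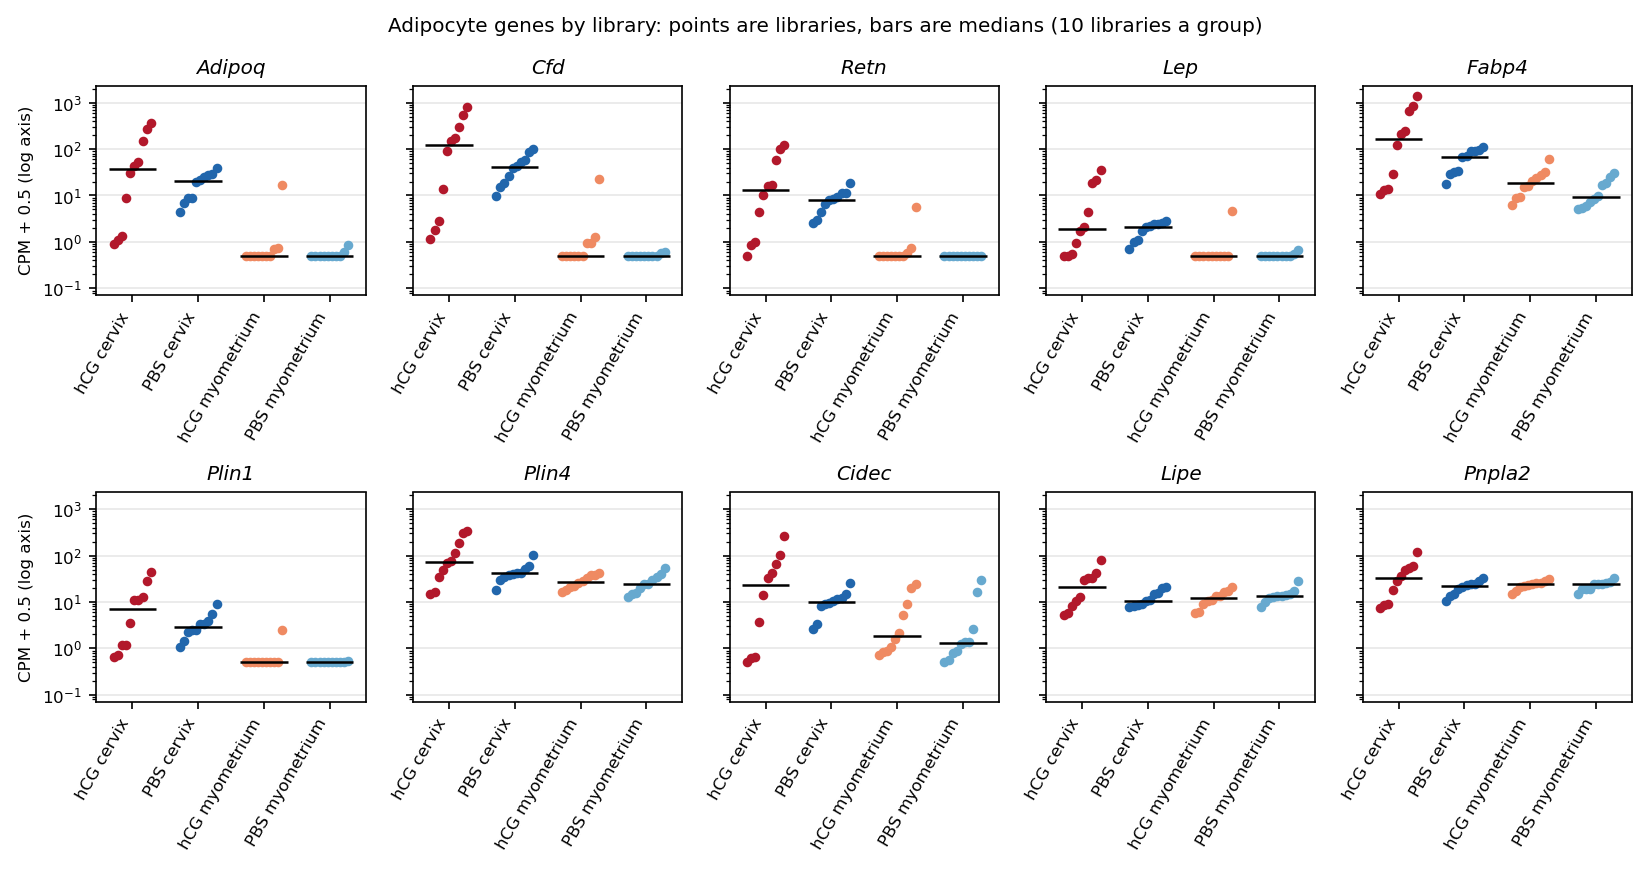
Level of each of the 10 genes in every library (points, CPM + 0.5 on a log axis, so that a level of 0 is drawn at 0.5) for hCG cervix, PBS cervix, hCG myometrium and PBS myometrium, with the median of each group as a bar. Adipoq spans 0.424 to 368 CPM in hCG cervix and 3.85 to 38.2 CPM in PBS cervix, and is at or near 0 in myometrium apart from 16.7 CPM in 1 hCG library, whereas Pnpla2 has reads in all 40 libraries, at 7.03 to 117 CPM in hCG cervix and 9.91 to 31.9 CPM in PBS cervix.

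Per kilobase of exon, the order of the medians in hCG cervix was Cfd (129 CPM per kilobase), Fabp4 (37.3), Adipoq (26.6), Plin4 (12.6), Cidec (12.1), Pnpla2 (10.7), Retn (8.06), Lipe (3.53), Plin1 (1.44) and Lep (0.420). In PBS cervix the first 3 were the same, at 43.7, 15.2 and 14.3 CPM per kilobase, and Plin1 (0.517) and Lep (0.486) again came last. In myometrium the order was different: Pnpla2 led, at 7.73 CPM per kilobase with hCG and 7.94 with PBS, followed by Plin4 at 4.53 with hCG and 4.14 with PBS. Neighbours in each of these orders overlapped in their ranges over libraries.

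Taken over all 10 genes, the share of a library's counts ranged from 0.00461% to 0.437% in hCG cervix with a median of 0.0562%, and from 0.00713% to 0.0486% in PBS cervix with a median of 0.0216%. The highest hCG cervix share was 94.8 times the lowest, against 6.82 times in PBS cervix. Library 3 held 0.437% (95% Wilson interval 0.434% to 0.440%), library 1 held 0.238% (0.236% to 0.240%) and library 5 held 0.183% (0.181% to 0.185%). These intervals cover counting error only. In all, 5 hCG cervix libraries lay above and 2 below the PBS range, so the hCG group held both the highest and the lowest libraries of the tissue. In myometrium the share was 0.00592% to 0.0217% with hCG and 0.00517% to 0.0136% with PBS.

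**Figure D2:**
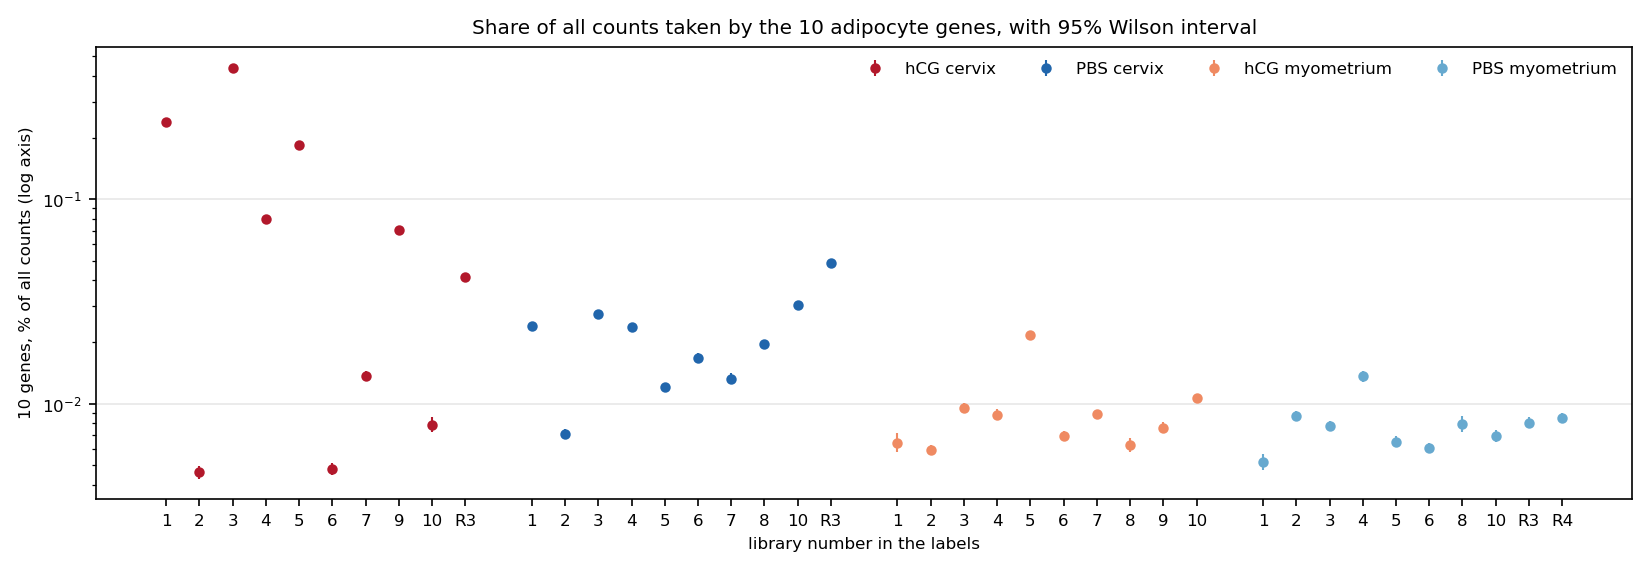
Summed share of counts of the 10 genes in each library (percent, log axis), with 95% Wilson intervals, by group. In hCG cervix the libraries run from 0.00461% to 0.437% and enclose the PBS cervix range of 0.00713% to 0.0486%, and in hCG myometrium library 5 stands highest at 0.0217%.

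The make-up of the summed counts of the 10 genes differed between the tissues and between libraries. Adipoq, Cfd, Retn, Lep and Plin1 made up 3.26% to 43.7% of the summed counts of the 10 in hCG cervix and 19.1% to 42.3% in PBS cervix. The lowest parts in hCG cervix were 3.26%, 5.08% and 7.96%, in libraries 10, 6 and 2. In myometrium these 5 genes made up 0% to 23.3% with hCG and 0% to 0.637% with PBS. The myometrial sums therefore came mostly from Plin4, Fabp4, Lipe, Cidec and Pnpla2 in libraries with few or no counts of the other 5. The value of 23.3% belonged to hCG myometrium library 5 alone, which held 265 counts of Adipoq, 345 of Cfd, 81 of Retn, 67 of Lep and 32 of Plin1. The other 9 hCG myometrium libraries held 0 to 25 counts of these 5 genes together. Among the 6 hCG myometrium libraries with none of them, a count of 0 allows a share of up to 5.51e-05% in the shallowest.

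In cervix, the comparison of hCG with PBS gave a higher fitted level for all 10 genes, of which Fabp4 passed the threshold. Fabp4 averaged 358 ± 474 CPM in hCG cervix and 63.2 ± 32.8 CPM in PBS cervix (SD, n = 10 each), with a log2 fold change of 2.52 (SE 0.767) and an adjusted p of 0.0453 in edgeR's quasi-likelihood test with Benjamini-Hochberg adjustment over 14932 genes. That is 1 of 10 members called higher, against 4.74% of all genes tested that were called higher, 4.17% called lower and 8.91% called in either direction. Only 6 of 10 hCG libraries exceeded the PBS median of Fabp4. The median log2 fold change of the 10 members was 2.17, against 0.00705 over all genes tested.

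For the secreted members, Adipoq averaged 91.8 ± 129 CPM in hCG cervix and 18.4 ± 11.4 CPM in PBS cervix, with a log2 fold change of 2.33 (SE 0.884) and an adjusted p of 0.0887 in edgeR's test. The log2 fold change was 2.25 (SE 0.891) for Cfd, 2.08 (SE 0.838) for Retn and 2.51 (SE 0.911) for Lep, with edgeR adjusted p of 0.1004, 0.105 and 0.0782. For the droplet genes it was 1.93 (SE 0.773) for Plin1, 1.40 (SE 0.495) for Plin4 and 2.38 (SE 0.924) for Cidec, with adjusted p of 0.104, 0.0717 and 0.0957. The lipases had the lowest values, 1.09 (SE 0.434) for Lipe and 0.90 (SE 0.418) for Pnpla2, with adjusted p of 0.101 and 0.156. None of these 9 passed the threshold, although each had an unadjusted p under 0.05. DESeq2 called 5 of the 10 higher (Fabp4, Adipoq, Cfd, Plin4 and Lep), where it called 8.47% of all genes higher and 16.1% in either direction.

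The hCG cervix libraries 3, 1 and 5 had the highest sums of the 10 genes, at 3542, 2222 and 1687 CPM, and the next, library 4, had 680 CPM, so that leaving out those 3 was bound to lower the fold changes. Without them the log2 fold change of Fabp4 was 0.57 (SE 0.593, adjusted p 0.641 in edgeR), that of Adipoq 0.09 (SE 0.738) and that of Cfd 0.49 (SE 0.814), while Retn was at -0.20 (SE 0.692) and Lep at -0.50 (SE 0.706). Without those 3 libraries edgeR called no gene of the whole table, and 0 of the 10 members had an unadjusted p under 0.05. In 20 fits that each left out 1 library, Fabp4 kept its call in 6 (without hCG 2, 4, 6, 9 or 10 or PBS R3) and lost it in the other 14, with an adjusted p of up to 0.105, without hCG 3. Within the deeper cervix libraries, 6 hCG and 4 PBS, the 10 log2 fold changes ran from 1.45 to 3.22, and within the shallower ones, 4 hCG and 6 PBS, from -0.20 to 0.85. Neither class gave a called member, and the edgeR test called 1.53% of all genes in the deeper class and none in the shallower class. The deeper class holds hCG libraries 1, 3 and 5 as well as hCG libraries 2 and 6, where Adipoq was at 0.625 and 0.824 CPM, below every PBS cervix library.

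**Figure D3:**
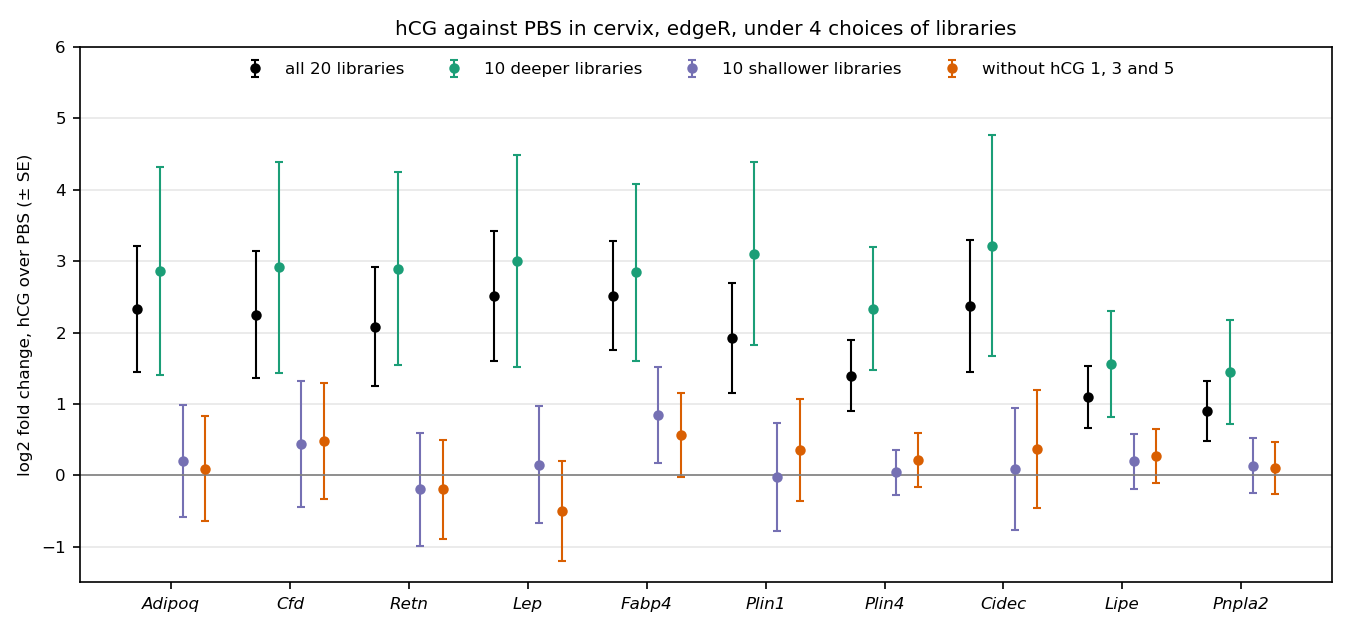
Log2 fold change of each gene between hCG and PBS cervix (edgeR, points with bars of 1 SE) with all libraries, without hCG libraries 1, 3 and 5, within the deeper and within the shallower libraries. With all libraries the values run from 0.90 to 2.52, without the 3 libraries from -0.50 to 0.57.

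The members moved together from library to library in cervix. On log2(CPM + 0.5), Adipoq correlated over the 20 cervix libraries with Retn at r = 0.988, Cfd at 0.985, Cidec at 0.979, Fabp4 at 0.970, Lep at 0.926, Plin1 at 0.896, Plin4 at 0.881, Lipe at 0.823 and Pnpla2 at 0.813. Spearman's rho ran from 0.770 to 0.976. All 9 relations passed in permutation tests with 100000 resamples, adjusted over a family of 18 relations, with a highest adjusted p of 6e-05 for r. Without the 2 libraries farthest from the median of Adipoq (hCG 10 and 2), r was at least 0.842. These points share library preparation and depth, so the values describe the libraries. The other 9 relations of the family were in myometrium, where 15 of 20 libraries had no Adipoq count. There 4 passed for r: Lep (0.988), Retn (0.976), Cfd (0.957) and Fabp4 (0.546). Without hCG 5 and PBS 8, the 2 farthest libraries in myometrium, these values were -0.105, 0.505, 0.717 and 0.344.

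The relation was tight for some members and loose for others within the treatments. Within hCG cervix, r with Adipoq was at least 0.898 for every member, and within PBS cervix it was at least 0.832 for Cfd, Retn, Fabp4, Lep and Cidec (n = 10 each). In PBS cervix it was 0.638 for Plin4, 0.467 for Plin1, 0.196 for Lipe and 0.154 for Pnpla2. Within the deeper libraries r was at least 0.906, and within the shallower ones its lowest value was 0.452, for Pnpla2. Lipe and Pnpla2 are lipases of many cell types. In PBS myometrium, where 8 of 10 libraries had no Adipoq count, Lipe averaged 14.0 CPM and Pnpla2 22.6 CPM. In PBS cervix the 2 lipases averaged 12.2 and 20.7 CPM. The part of other cell types in these relations was not tested.

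**Figure D4:**
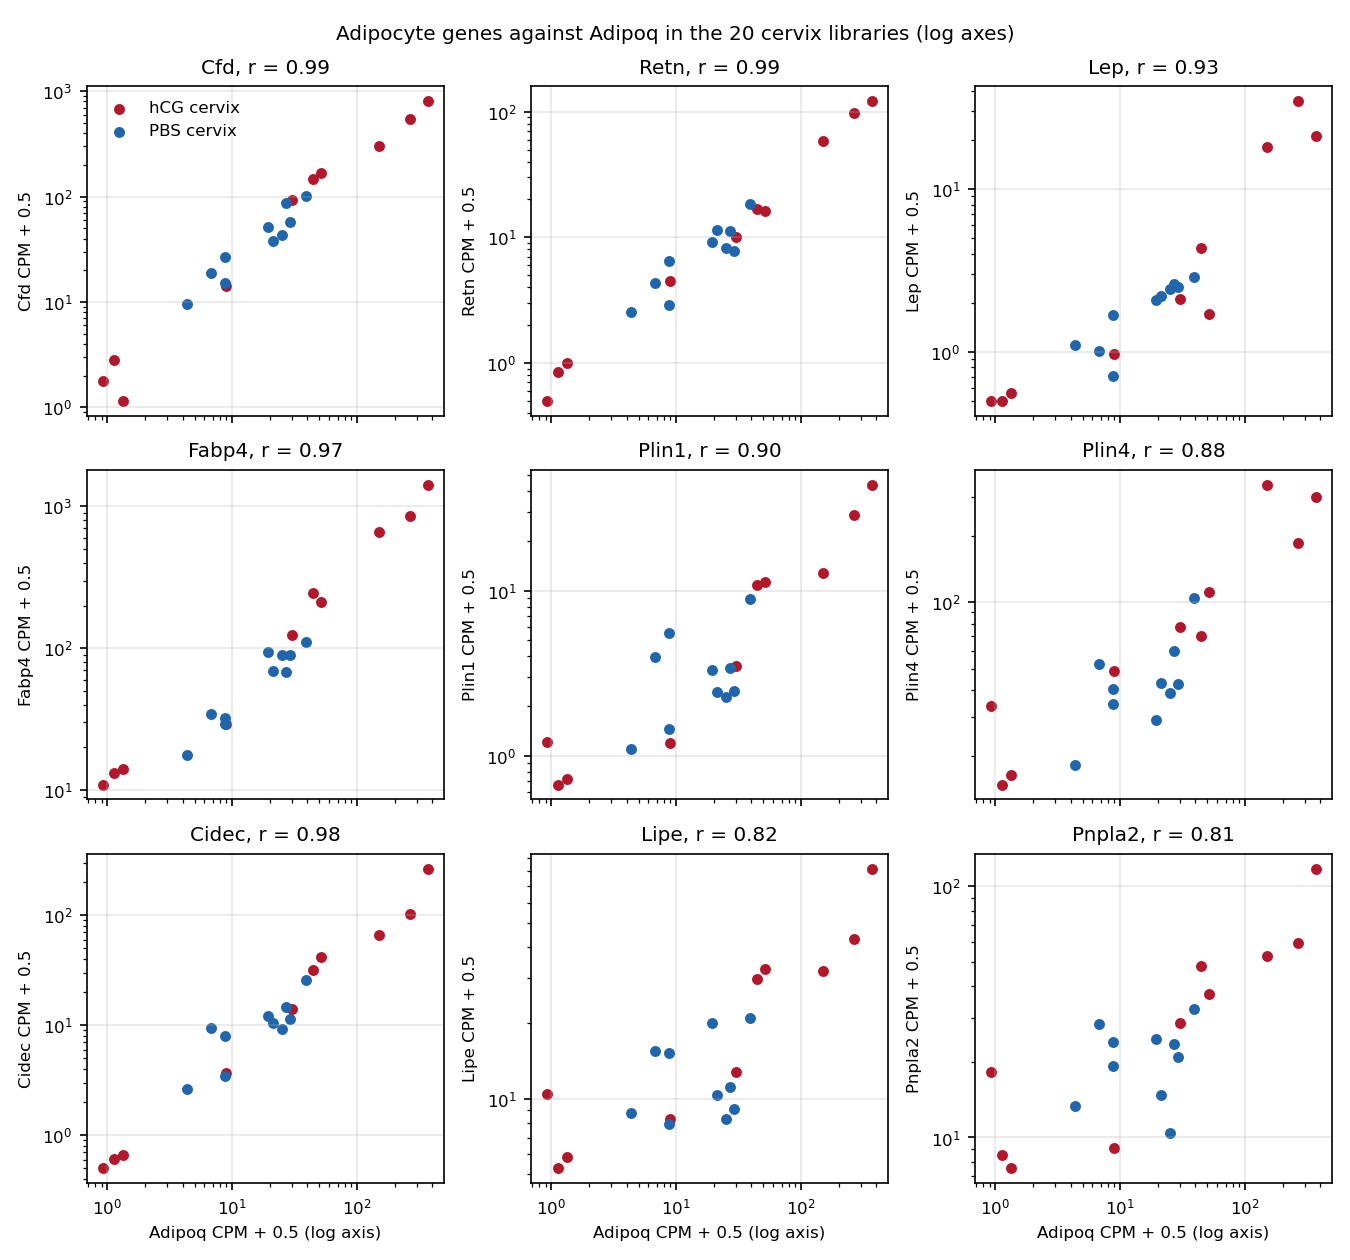
Level of each of the other 9 genes against Adipoq in the 20 cervix libraries (CPM + 0.5, log axes), with 1 colour each for hCG and PBS libraries. Cfd, Retn, Fabp4 and Cidec lie along a line (r from 0.970 to 0.988), while Pnpla2 (r = 0.813) and Lipe (r = 0.823) scatter more widely.

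Ratios of reads give the same view without scaling. In the 13 cervix libraries with at least 100 Adipoq counts, the lowest, median and highest number of Cfd reads per Adipoq read was 1.62, 2.19 and 3.36. The same ratio was 0.257, 0.370 and 0.529 for Retn, and 2.54, 3.63 and 5.57 for Fabp4. The highest ratio was 2.07 times the lowest for Cfd, 2.06 for Retn, 2.19 for Fabp4 and 2.30 for Cidec. It was 3.42 times the lowest for Plin1 and 5.38 times for Lep. Plin4 ranged from 0.697 to 5.74 reads per Adipoq read with a median of 2.06, Lipe from 0.160 to 1.03 and Pnpla2 from 0.220 to 1.29. The cut removed the libraries with the fewest Adipoq counts. Among these, Fabp4 was at 24.7, 20.5 and 16.5 reads per Adipoq read in hCG libraries 10, 2 and 6. In PBS libraries 2, 5, 6 and 7 it was at 3.48 to 5.39.

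The genes outside the 10 that were most like them over the 20 cervix libraries, by mean Spearman rho with the 10 among 14932 genes, were Car3 (0.917), Cyp2e1 (0.916), Mgll (0.908), Hp (0.903), Acvr1c (0.897), Trarg1 (0.885), Klb (0.881), Slc36a2 (0.876), Crat (0.867) and Adrb3 (0.865). Car3, a carbonic anhydrase abundant in fat and muscle, stood at 2.55, 230 and 2952 CPM in hCG cervix, against 39.0, 114 and 224 CPM in PBS cervix. Mgll completes the breakdown of triglyceride after Pnpla2 and Lipe, and Adrb3 is the adrenergic receptor of adipocytes. In all, 40 genes had a mean rho over 0.8 in cervix. In myometrium, over the 5 members that passed the filter on low counts, 0 of 14517 genes did, and the highest were Adamtsl2 (0.559), Lrrc8a (0.538) and Entpd2 (0.527).

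Markers of other tissues moved with some of these libraries. Urothelial genes were called higher in hCG than in PBS cervix for 5 of 7 tested, yolk sac genes for 2 of 7, mesothelial genes for 1 of 4, macrophage and endothelial genes for 1 of 10 each, skeletal muscle genes for 1 of 8, neural genes for 1 of 7, lymphocyte genes for 0 of 3 and smooth muscle genes for 0 of 9. Squamous genes were called lower for 3 of 10. Over all genes tested, 4.74% were called higher and 4.17% lower. Squamous markers summed to 609 to 16121 CPM (median 5809) in hCG cervix, against 9601 to 63522 CPM (median 21514) in PBS cervix, and the lowest sums belonged to hCG libraries 5 (609 CPM) and 3 (1407 CPM). The hCG library with the third lowest squamous sum, library 7 at 2024 CPM, held 8.402 CPM of Adipoq. The skeletal muscle sum was high in hCG library 1 alone, and library 3, with the most Adipoq, had a sum of 178 CPM. Smooth muscle markers summed to 26648 CPM in hCG library 5 and 1134 CPM in library 1, both libraries with over 100 CPM of Adipoq. The sum of the yolk sac list was high in hCG libraries 1, 3 and 5, at 1247, 568 and 566 CPM. It was 45.9 to 190 CPM in the other hCG and 50.0 to 201 CPM in the PBS cervix libraries. That list shares Rbp4 with the list of other mature adipocyte genes. Its marker Afp was at 3.02, 36.3 and 1.86 CPM in hCG libraries 1, 3 and 5. In the other hCG cervix libraries Afp was at 0.495 to 18.4 CPM, and in PBS cervix at 0 to 33.7 CPM. Macrophage markers summed to 1255 CPM in hCG library 3 and 1044 CPM in library 5, against 293 to 654 CPM in the other hCG and 161 to 651 CPM in the PBS cervix libraries. The part of these tissues in the results was not tested.

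**Figure D5:**
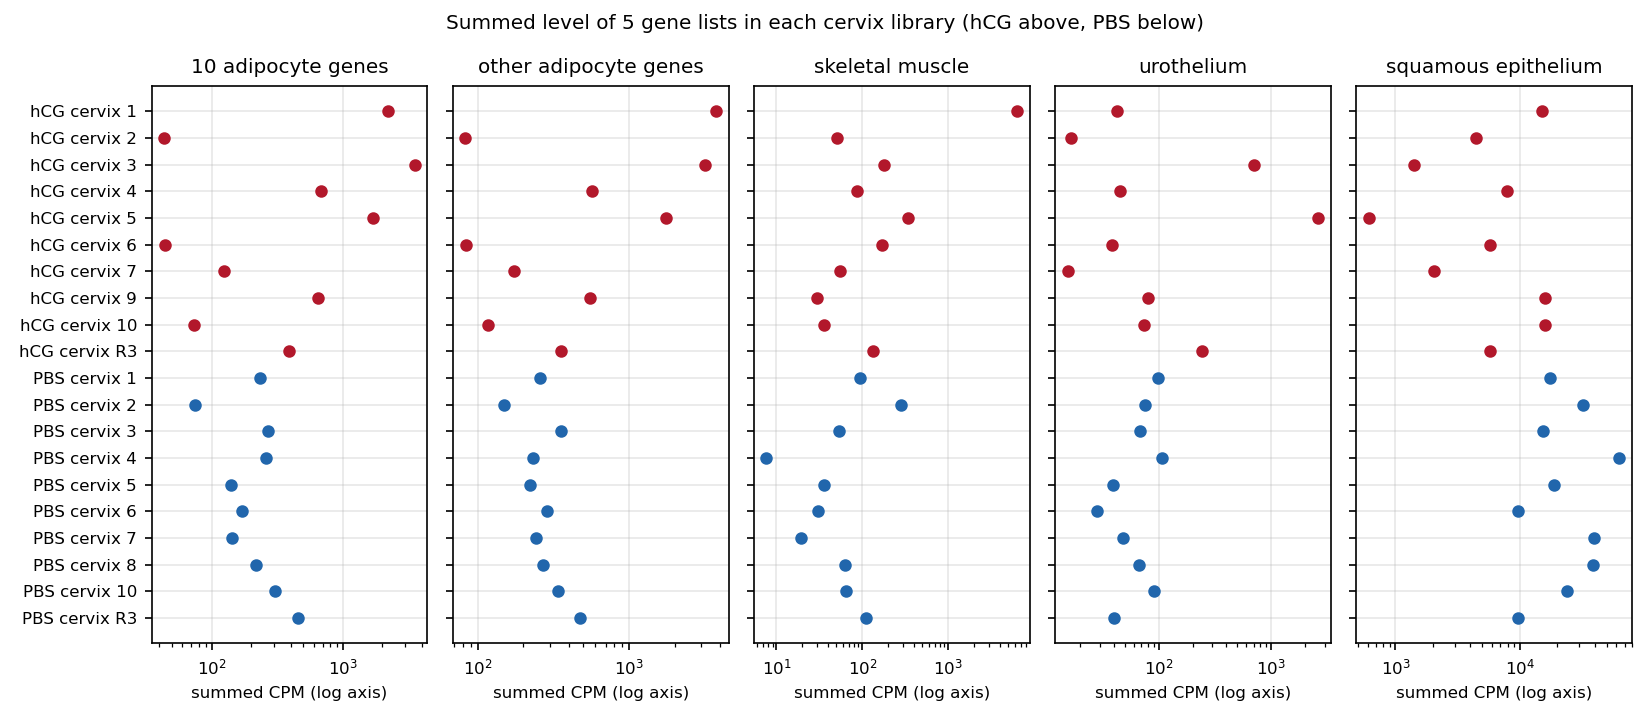
Summed level (CPM, log axis) of the 10 adipocyte genes, of the other mature adipocyte genes and of skeletal muscle, urothelial and squamous markers in each cervix library, hCG libraries above PBS libraries. In hCG library 1 skeletal muscle markers reach 6372 CPM, in library 5 urothelial markers reach 2631 CPM, and in library 3 the adipocyte genes reach their highest sum of 3542 CPM.

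The wider adipocyte pathway was read from 8 further lists. Of 12 adipogenic transcription factors tested in cervix, 3 were called higher with hCG and 0 lower, against 4.74% higher and 4.17% lower over all genes tested, and the median log2 fold change was 0.74. Pparg, the master regulator of adipocytes, averaged 24.0 ± 35.7 CPM in hCG cervix and 5.08 ± 1.26 CPM in PBS cervix (SD, n = 10 each), with a log2 fold change of 2.25 (SE 0.620, edgeR adjusted p 0.0342). Its highest value was 115.6 CPM in hCG library 5, the library with the most urothelial marker reads, and PPARγ is also made by urothelium. In hCG cervix library 3, Pparg reached 49.0 CPM beside a urothelial marker sum of 699 CPM. For library 1 of that group, 33.6 CPM of Pparg stood beside a urothelial sum of only 42.8 CPM. Whether urothelial RNA raised the Pparg level was not tested. The other 2 factors called higher were the early adipogenic factor Cebpd (log2 0.75, adjusted p 0.0332) and Ebf2 (log2 1.96, adjusted p 0.0338).

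Lipid droplet and lipolysis genes rose for 3 of 13 tested and fell for 0, with a median log2 fold change of 0.46, where 4.74% of all genes rose and 4.17% fell. These were Prkar2b, a regulatory subunit of protein kinase A (log2 1.10, edgeR adjusted p 0.0275), G0s2, an inhibitor of ATGL (log2 2.43, adjusted p 0.0286), and Adrb3 (log2 2.09, adjusted p 0.0479). Of 10 uptake genes, Lpl, the lipase that frees fatty acids from circulating lipoproteins, rose (log2 1.03, adjusted p 0.0384). The epidermal carrier Fabp5, abundant in squamous epithelium, fell to 135.2 ± 129 CPM in hCG cervix, against 696 ± 624 CPM in PBS cervix (log2 -2.36, adjusted p 0.0294). Of 16 lipid synthesis genes, Lpin1 alone was called (log2 1.19, adjusted p 0.0298).

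Of 15 other mature adipocyte genes, all had a positive log2 fold change and 2 were called higher, Rbp4 (log2 1.66, edgeR adjusted p 0.0385) and the amino acid transporter Slc7a10 (log2 1.84, adjusted p 0.0475), with a median of 0.996. Among 5 brown fat genes tested, the coactivator Ppargc1a was called higher (log2 0.99, adjusted p 0.0332). Among 6 adipokine receptors it was the leptin receptor Lepr (log2 1.24, adjusted p 0.0303), and among 8 progenitor genes Ly6a (log2 0.83, adjusted p 0.0390). Of these 8 lists, that of uptake genes alone had a member called lower. Over all genes, 4.74% were called higher. As for the 10 members, 0 genes of these lists were called without hCG libraries 1, 3 and 5, since no gene of the table was.

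In myometrium, none of the members that could be tested passed the threshold between hCG and PBS. Only 5 passed the filter on low counts, and 0 were called by edgeR or by DESeq2, where edgeR called 0.0138% and DESeq2 2.74% of all genes, and 0 had an unadjusted p under 0.05. The log2 fold change was 0.79 for Fabp4 (SE 0.433, adjusted p 0.403 in edgeR), 0.04 for Plin4 (SE 0.244, adjusted p 0.970) and 0.40 for Cidec (SE 1.06, adjusted p 0.911). It was -0.21 for Lipe (SE 0.232, adjusted p 0.725) and 0.03 for Pnpla2 (SE 0.142, adjusted p 0.963). The fitted changes of Plin4, Lipe and Pnpla2 were smaller than their SE, as was that of Cidec with its wide SE. None of the 8 pathway lists had a called gene in myometrium, with 0 to 2 genes of each at an unadjusted p under 0.05.

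Cidec in myometrium went with a few libraries of both treatments. It was at 24.1 CPM in hCG library 10, 19.7 CPM in hCG library 5, 8.61 CPM in hCG library 7, 29.8 CPM in PBS library 4 and 15.6 CPM in PBS library 8, and at most 4.83 CPM in the others. In those 5 libraries the yolk sac markers, among them Afp, summed to 38650.1 CPM in hCG 10, 18119.5 CPM in hCG 5, 11983 CPM in hCG 7, 24651 CPM in PBS 4 and 15957 CPM in PBS 8. The 2 libraries with the most Cidec, PBS 4 and hCG 10, had 0.118 CPM and 0 CPM of Adipoq. Yolk sac sums of 12960 and 16650 CPM went with 4.83 CPM of Cidec in hCG library 3 and 2.08 CPM in PBS library R3, so the order of the libraries was not the same. The part of yolk sac RNA in the level of Cidec was not tested.

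Between the tissues, 5 of the 8 members tested in PBS mice were called higher in cervix and 0 lower, against 28.1% of all genes called higher, 26.1% lower and 54.1% in either direction. Members that passed the filter only through cervix had to differ, so the count says little beyond the levels. Adipoq averaged 18.4 ± 11.4 CPM in PBS cervix and 0.0470 ± 0.113 CPM in PBS myometrium, 804-fold higher in pooled counts (95% exact interval 275 to 3899, from 2686 and 3 counts, 2 of the 3 in PBS myometrium library 8). Cfd was 2742-fold higher (759 to 22645, from 6110 and 2 counts), Plin1 315-fold (56.2 to 12477, from 351 counts and 1 count) and Lep 92.4-fold (25.3 to 768, from 206 and 2 counts) in pooled PBS counts. With so few myometrial counts the size of these folds is known only within the intervals, which cover counting error and not the spread between libraries. Retn, with 0 counts in PBS myometrium against 1026 in PBS cervix, was at least 307-fold higher, taking 3 counts over the group as the floor. For these 5 genes every PBS cervix library lay above every PBS myometrium library. The share of all genes with groups apart in this way was not counted, so the separation describes levels only. For Lep the separation rests on 0.210 CPM (2 counts) in PBS cervix library 5 against 0.176 CPM (1 count) in PBS myometrium library 8. Both lie under the level of 3 counts in their library, 0.315 and 0.527 CPM.

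The genes with myometrial reads differed less. Fabp4 was higher in PBS cervix by 2.35 on the log2 scale (SE 0.399, edgeR adjusted p 3.53e-05) and Plin4 by 0.78 (SE 0.280, adjusted p 0.0217). Cidec (log2 1.09, SE 0.822, adjusted p 0.273), Lipe (log2 -0.19, SE 0.230, adjusted p 0.508) and Pnpla2 (log2 -0.12, SE 0.184, adjusted p 0.614) did not pass. Plin4 lost its call without PBS cervix library R3, and Cidec gained one without PBS myometrium library 4 (log2 2.36). Among hCG mice 6 of 7 members tested were called higher in cervix, against 24.3% of all genes called higher and 43.7% in either direction. Adipoq and Cfd had no count in 7 and 6 of the 10 hCG myometrium libraries and passed the filter through cervix. They had to differ, so this count too says little beyond the levels. The log2 fold change was 5.64 for Adipoq (SE 1.36), 6.39 for Cfd (SE 1.41), 4.06 for Fabp4 (SE 0.847), 3.07 for Cidec (SE 1.11), 2.12 for Plin4 (SE 0.487) and 1.12 for Lipe (SE 0.440, adjusted p 0.0440). Pnpla2 was not called (log2 0.75, SE 0.402, adjusted p 0.139). Lipe kept its call in 8 of 20 fits that left out 1 library, Cidec lost its call without hCG cervix library 3, and Cfd was at 9.94 on the log2 scale without hCG myometrium library 5. Without hCG cervix libraries 1, 3 and 5, Adipoq was no longer tested, Cfd (log2 4.59), Fabp4 (log2 2.10) and Plin4 (log2 0.93) stayed past the threshold, as did 23.9% of all genes in that direction, and Lipe (log2 0.28) and Cidec (log2 1.04) did not.

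The lists of the pathway were mixed between the tissues, where 28.1% of all genes were called higher and 26.1% lower in PBS cervix. In PBS mice 10 of 16 lipid synthesis genes were higher in cervix and 2 lower, among them the desaturase Scd1 (log2 2.18) and Acaca (log2 1.07). Of 13 droplet and lipolysis genes 4 were higher and 5 lower, with Mgll (log2 -2.52) and the ubiquitous droplet coat Plin2 (log2 -1.82) lower in cervix. Uptake genes were lower for 6 and higher for 2 of 10, with Vldlr at log2 -1.96 and Fabp5 at log2 3.96, and progenitor genes lower for 5 and higher for 0 of 8. Of 14 other mature adipocyte genes 6 were higher, led by Car3 (log2 6.27) and Acvr1c (log2 5.02), and 4 lower, among them Rbp4 (log2 -4.39), which the yolk sac also makes. Of 10 adipogenic transcription factors 3 were higher and 5 lower.

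Whether the response to hCG differed between the tissues was tested over all 40 libraries, and 0 of 10 members passed in edgeR, DESeq2 or voom, where edgeR called 0.352% and DESeq2 3.84% of all genes. Plin4 (log2 1.34, SE 0.571, edgeR adjusted p 0.180) and Lipe (log2 1.30, SE 0.511, adjusted p 0.149) had an unadjusted p under 0.05. For Adipoq the difference was -3.47 (SE 2.35) with hCG myometrium library 5 and 1.51 (SE 4.203) without it. No relation of Adipoq levels between the tissues passed the test. Over the 18 combinations of treatment and number found in both, r was 0.275 (permutation p 0.321) and rho was -0.0085 (p 0.975), with 14 of the myometrium libraries at 0. Whether libraries with the same number came from the same mouse is not stated, and with so many libraries at 0 the test cannot show whether the levels are related. Without the 2 libraries farthest from the median in cervix r was 0.261.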

How the data were processed

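The authors deposited raw counts per gene: whole numbers for 23079 numeric gene identifiers in 40 libraries. The submitters' processing notes name TopHat2 and GRCm38 (mm10), and the labels' protocols a stranded total RNA kit. The sources used here do not give the counting tool, annotation or strand setting. Gene names came from RefSeq GRCm38.p6, which matched 23008 identifiers; the other 71 held 0.197% of counts and stayed in library sizes.

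The main test was the quasi-likelihood F-test of edgeR (robust dispersion, filterByExpr, TMM factors) on the deposited counts, with Benjamini-Hochberg adjustment over all genes tested and a threshold of 0.05. A gene was called when it passed. The SE equals the size of the log2 fold change over √F. Levels are CPM after TMM scaling over 40 libraries, given as mean ± SD or as lowest, median and highest. Levels per kilobase use the exon length of GENCODE M21. Correlations used log2(CPM + 0.5) and two-sided permutation tests with 100000 resamples. The scripts were tested on simulated data. The software was R 4.3.3, edgeR 4.0.16, limma 3.58.1, DESeq2 1.42.0, Python 3.11.15, numpy 2.4.6 and scipy 1.17.1.

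The 10 members, 8 pathway lists and 10 marker lists were chosen with earlier results of these data known. Of 183 list genes, 1 is not in the table. The text names the members, up to 4 called genes of each pathway list per comparison by smallest p, and the 10 genes most like the members per tissue. Predicted models were left out there, and only 3 of the 10 are named for myometrium. Levels of single marker genes are given in part as sums, and Ucp1, Adig and Lars2 are named outside this rule. These choices followed a look at the values. Alternatives were other scaling factors, filters, dispersion and tools (DESeq2, voom), a looser threshold, all libraries in 1 fit, the label number as a block, depth classes and libraries left out.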

Additional observations from a re-analysis of the deposited data

Results flagged for a closer look

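With 4 groups and 10 genes, 40 groups of 10 libraries were looked at for a highest or lowest library far from the other 9. Such a library was found in 16. The rule flags about 1 in 20 by chance for normally distributed values. The levels here were skewed, some genes had no count in most myometrium libraries, and the genes moved together in cervix. The 16 can therefore not be compared with that rate. Of the 16 flags, 6 were the same library, hCG myometrium 5. It was far above the other hCG myometrium libraries for Adipoq (16.7 CPM), Cfd (21.8 CPM), Retn (5.11 CPM), Plin1 (2.02 CPM), Fabp4 (61.6 CPM) and Lep (4.225 CPM). Its yolk sac markers summed to 18119.5 CPM and its squamous markers to 35.5 CPM, and the part of other tissues in its values was not tested. In hCG cervix, library 3 stood far above the others for Lipe (81.4 CPM), Cidec (265 CPM) and Pnpla2 (117 CPM). In PBS cervix, library R3 did so for Plin4 (104 CPM) and Cidec (25.1 CPM).

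In PBS myometrium the flags for Adipoq (0.352 CPM in library 8), Lep (0.176 CPM in library 8) and Plin1 (0.04999 CPM in library 6) rest on 1 or 2 counts each. PBS myometrium library 4 was flagged for Lipe (27.9 CPM) and Cidec (29.8 CPM), and its yolk sac markers summed to 24651 CPM.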

How the results depend on the processing

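The count of members called in cervix, 1 with edgeR, was 0 without the filter on low counts, with voom, with depth as a term, in either depth class alone, without hCG libraries 1, 3 and 5 and without PBS libraries 5 to 8, and 5 with DESeq2, at an adjusted p under 0.1 and with all 40 libraries in 1 fit. Leaving out 1 library at a time gave 0 to 4. DESeq2 called 16.1% of all genes tested, and edgeR 3.4% with depth as a term. In the deeper and shallower class edgeR called 1.53% and 0% of all genes. It called 0% without hCG libraries 1, 3 and 5 and 0.0064% without PBS libraries 5 to 8. Where few or no genes of the table were called, a count of 0 says little about the members. For the other settings in cervix no share over all genes is given here. In myometrium and for the difference of responses the count stayed 0 in all alternatives run, single libraries left out included for myometrium and not run for the difference. Between tissues it was 3 in hCG mice without hCG cervix libraries 1, 3 and 5, and 3 when hCG myometrium library 5 was left out as well. In these 2 fits 23.9% and 23.5% of all genes were called higher in cervix. The count was 3 to 7 when 1 library was left out in hCG mice and 4 to 6 in PBS mice, with no share over all genes given here. Of 1077 member results under an alternative, 980 kept direction and side of the threshold, 46 lost the call, 19 gained one and 32 changed sign. The cause was not tested.

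These signs changed. In cervix Lep was at log2 -0.14 with voom, Retn at -0.20 and Plin1 at -0.0246 in the shallower libraries, and Retn at -0.20 and Lep at -0.50 without hCG libraries 1, 3 and 5. For the difference of responses Plin1 was at 0.79 and Cidec at -1.56 with voom, Cidec at -0.26 with the replicate block, Fabp4 at -0.22 and Cidec at -0.000322 without hCG cervix libraries 1, 3 and 5, and Adipoq at 1.51, Plin1 at 2.81 and Lep at 3.98 without hCG myometrium library 5. In hCG mice Pnpla2 between tissues was at -0.0655 without hCG cervix libraries 1, 3 and 5 and at -0.0496 without hCG myometrium library 5 as well. In myometrium Pnpla2 was at -0.0669 without the 3 libraries of high Lars2 level, and with 1 library left out Cidec ran from -0.16 to 1.65, Pnpla2 from -0.0487 to 0.0880 and Plin4 from -0.0522 to 0.21. The fits without hCG myometrium library 5 and without the libraries of high Lars2 level were chosen after seeing the data.

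With the label number as a replicate block the count was 0 in cervix, 0 in myometrium, 0 for the difference, 6 between tissues in PBS and 4 in hCG mice. The share of all genes called with the block is not given here, so these counts cannot be set against it. The numbers were not taken to pair libraries, since same-numbered libraries correlated over 0.1 in 4 of 9 cervix pairs, 3 of 8 myometrium pairs, 3 of 9 hCG pairs between tissues and 5 of 9 PBS pairs, and 2, 1, 2 and 3 of them correlated best with their own number. The correlation of Adipoq between tissues was 0.311 with a pseudocount of 2 and 0.271 without TMM factors.

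A count of 0 in the shallowest library allows a share of up to 5.51e-05% of its counts, and 5 members were too low to test in myometrium. With 10 libraries a group and a spread in hCG cervix as wide as its mean, a p over the threshold does not show that levels were alike.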

Other observations

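Reads of Ucp1, a gene of the brown fat list, appeared in a few cervix libraries. The whole list had reads in every library, summing to 39.5 to 195 CPM in hCG cervix and 61.3 to 415 CPM in PBS cervix. The sum of 415 CPM was in PBS cervix library 8, where Ucp1 had no count. Within hCG cervix the sum was highest in library 3, at 195 CPM, and library 9, at 174 CPM. In myometrium it was 103 to 202 CPM with hCG and 90.1 to 748 CPM with PBS. Ucp1, the uncoupling protein of brown and beige adipocytes, had reads in too few libraries to be tested. It stood at 88.7 CPM in hCG cervix library 9, 34.6 CPM in library 3 and 13.4 CPM in library 4, against 11.2 CPM in PBS cervix library 4 and 0.78 CPM in PBS cervix library 3. The order differed from that of Adipoq, which was 43.6 CPM in library 9 but 267 CPM in library 1, where Ucp1 had no count. Ucp1 was at most 0.233 CPM in the other hCG cervix libraries. Zic1, a marker of classical brown fat, had no count in any of the 40 libraries.

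Adig, a small protein of adipocyte droplets, was at 21.0 CPM in hCG cervix library 3, 16.05 CPM in library 1 and 8.43 CPM in library 5. The other hCG cervix libraries held 0.227 to 6.10 CPM, against 0.380 to 3.49 CPM in PBS cervix. Libraries 2 and 6 of the hCG cervix group, at 0.227 and 0.275 CPM, lay below every PBS cervix library.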
